A study of Mus musculus with 4 samples.

Results

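The genes of the CD3 chains and of the pre-T cell receptor alpha chain were examined in nascent RNA of double positive (DP) thymocytes, the stage of T cell development at which cells carry both CD4 and CD8. The members were the rows of the fragment count table with the symbols Cd3e, Cd3d, Cd3g, Cd247 and Ptcra, which made 5 of 24984 genes, and all 5 were found. The data were TTchem-seq libraries, in which newly made RNA takes up 4-thiouridine and is then fragmented, enriched and sequenced, so that fragments over introns and exons follow transcriptional output. There were 2 libraries labelled Tox4 WT, of genotype Tox4;F/F, and 2 labelled Tox4 cKO, of genotype Tox4;F/F;Lck+. Both Tox4 alleles were therefore flanked by loxP sites in all 4 libraries, and only the cKO libraries carried in addition the Cre transgene that, per the study's methods, is driven by the proximal Lck promoter and deletes Tox4 in T cells from an early thymocyte stage onwards. No WT mouse carried Cre, so the effect of the transgene and that of Tox4 loss cannot be told apart. Per the methods the mice were young adult littermates matched for sex, but Xist, given below, differed between the libraries. The labels give neither an age nor whether a library came from 1 mouse or several, so p-values measure only the spread between these libraries, which may be technical.

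The CD3 chains have no antigen specificity of their own. CD3 epsilon (Cd3e) pairs with CD3 delta (Cd3d) or CD3 gamma (Cd3g), and these dimers join the zeta chain homodimer (Cd247) and the antigen-binding T cell receptor (TCR) chains at the cell surface, where their cytoplasmic tyrosine motifs are phosphorylated by Lck and recruit Zap70. Ptcra encodes pre-T alpha, the invariant partner of the TCR beta chain in double negative (DN) thymocytes. It is used for beta selection and is shut down as cells become DP and rearrange the TCR alpha locus, whereas the CD3 chains serve both the pre-TCR and the mature receptor.

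The libraries held between 38429786 and 48690591 fragments, and 11625 genes had a mean of at least 1 CPM, that is, fragments scaled to a library total of 1000000. Of 10 DP marker genes all 10 reached this level, and 2 of them, Rag1 and Cd8a, were called lower in cKO. It was also reached by 10 of 10 markers of mature single positive cells, of which 3 were called higher and 1 lower, by 7 of 10 DN, 4 of 10 B cell and 3 of 10 myeloid markers, 1 gamma delta T or NK cell marker of the 8 in the table, 1 of 10 thymic stroma markers (Pecam1, with the list summing to 361 to 417 CPM) and 0 of 10 erythroid markers. The ribosomal precursor Rn45s took 2.71% and 4.30% of fragments in WT and 2.44% and 4.05% in cKO. WT replicate 1 stood apart by Xist, the RNA of the inactive X chromosome. It was at 172 CPM there against at most 2.36 CPM in the other 3 libraries, so results are also given without that library. As Xist is made in female cells, the libraries did not look alike in sex, although the methods describe matching for sex. The deleted gene Tox4 was at 74.04 and 70.3 CPM in WT and at 59.3 and 57.2 CPM in cKO, counted over the whole gene and not over the deleted exons. Its log2 fold change was -0.31 (SE 0.0998), with an adjusted p-value of 0.0453 in the DESeq2 Wald test. This was no longer under the threshold with edgeR, limma voom, total count factors, independent filtering off, the replicate block or any 1 library left out.

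Cd3g, Cd3d and Cd3e lie side by side on chromosome 9 of GRCm38 within 40040 bp. Cd3g (44969572 to 44980431, minus strand, 10860 bp) and Cd3d (44981786 to 44987052, plus strand, 5267 bp) start back to back with 1354 bp between them, and Cd3e (44998743 to 45009611, minus strand, 10869 bp) faces Cd3d at a distance of 11690 bp. Cd247 lies on chromosome 1 (165788681 to 165871153, plus strand) and is far longer, at 82473 bp, and Ptcra on chromosome 17 (46755663 to 46763712, minus strand, 8050 bp). The RefSeq coding transcripts have 8 exons for Cd3e, 5 for Cd3d, 7 for Cd3g, 8 or 9 for Cd247 and 4 for Ptcra. Exons made up 25.3% of the counted length of Cd3d, 15.9% of Ptcra, 13.4% of Cd3e, 9.42% of Cd3g and 5.58% of Cd247, so most of each counted gene was intron.

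The 250 bases before each start are shown because they lie directly upstream of where the counted gene begins. They were read 5′ to 3′ on the strand of the gene from RefSeq's promoter table for GRCm38.p6, which held all 5 genes, at chr9:45009612-45009861 for Cd3e, chr9:44981536-44981785 for Cd3d, chr9:44980432-44980681 for Cd3g, chr1:165788431-165788680 for Cd247 and chr17:46763713-46763962 for Ptcra. Capitals mark E boxes (CANNTG), the letters bound by E proteins such as those of Tcf3 and Tcf12.
Cd3e: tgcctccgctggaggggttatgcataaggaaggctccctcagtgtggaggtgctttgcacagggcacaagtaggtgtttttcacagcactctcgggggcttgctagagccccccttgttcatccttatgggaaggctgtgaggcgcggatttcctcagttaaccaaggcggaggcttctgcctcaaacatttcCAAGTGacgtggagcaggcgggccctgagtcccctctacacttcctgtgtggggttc
Cd3d: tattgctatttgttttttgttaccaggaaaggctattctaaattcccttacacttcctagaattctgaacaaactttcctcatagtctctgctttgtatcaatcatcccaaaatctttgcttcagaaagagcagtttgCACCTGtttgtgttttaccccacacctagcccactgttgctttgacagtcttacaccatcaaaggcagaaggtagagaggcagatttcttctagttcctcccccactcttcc
Cd3g: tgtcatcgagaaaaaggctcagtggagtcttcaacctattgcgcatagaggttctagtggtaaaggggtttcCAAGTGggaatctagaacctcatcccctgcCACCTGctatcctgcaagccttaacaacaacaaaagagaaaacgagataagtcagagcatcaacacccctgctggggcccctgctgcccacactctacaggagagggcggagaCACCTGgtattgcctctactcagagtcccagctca
Cd247: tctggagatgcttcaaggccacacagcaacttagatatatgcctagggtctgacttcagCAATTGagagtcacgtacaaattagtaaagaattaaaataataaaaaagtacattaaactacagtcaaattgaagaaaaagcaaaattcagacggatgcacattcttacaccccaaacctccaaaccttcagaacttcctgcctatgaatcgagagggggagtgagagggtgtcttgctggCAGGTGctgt
Ptcra: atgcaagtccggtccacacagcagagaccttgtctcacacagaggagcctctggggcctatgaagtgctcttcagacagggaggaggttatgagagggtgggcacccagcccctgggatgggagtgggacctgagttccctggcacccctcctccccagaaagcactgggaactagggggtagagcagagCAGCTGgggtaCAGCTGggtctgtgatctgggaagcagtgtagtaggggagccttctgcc
An E box was found in all 5 windows, with 3 in Cd3g, 2 each in Cd247 and Ptcra and 1 each in Cd3d and Cd3e. Both E boxes of Ptcra had the letters CAGCTG, 60 and 49 bases before the start. Of 32851 promoter windows of the same length, 66.2% held at least 1 E box, so its presence does not set these genes apart. The core letters bound by ETS factors (GGAA, on both strands) occurred 5 times in Cd3e, 6 in Cd3d, 2 in Cd3g, 1 in Cd247 and 3 in Ptcra, against at least 1 in 93.45% of windows. In Cd3e and in Cd3g, 1 E box overlapped such a core. Neither TATAAA, which 12.4% of windows held on one strand or the other, nor the RUNX letters TGTGGT, held by 14.05%, was found in any of the 5 windows.

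Levels were compared between genes as CPM per kb of gene. Cd247 was highest, with 42.6 and 43.4 CPM per kb in WT and 41.6 and 38.7 in cKO. Cd3d followed at 25.5 and 26.1 CPM per kb in WT and 26.4 and 22.7 in cKO. These were levels that few genes exceeded, since Cd247 ranked 116 and Cd3d ranked 204 among the 11625 genes by this measure. Cd3e stood at 18.01 and 19.3 CPM per kb in WT and 18.4 and 18.5 in cKO, and Cd3g at 15.2 and 16.3 in WT and 14.8 and 12.1 in cKO, with ranks of 320 and 424. Ptcra was at 0.699 and 0.901 CPM per kb in WT and 0.727 and 0.847 in cKO. With rank 7683 it lay below the median gene, which had 1.46 CPM per kb, and the mean density of Cd3g was 18.4 times that of Ptcra.

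**Figure D1:**
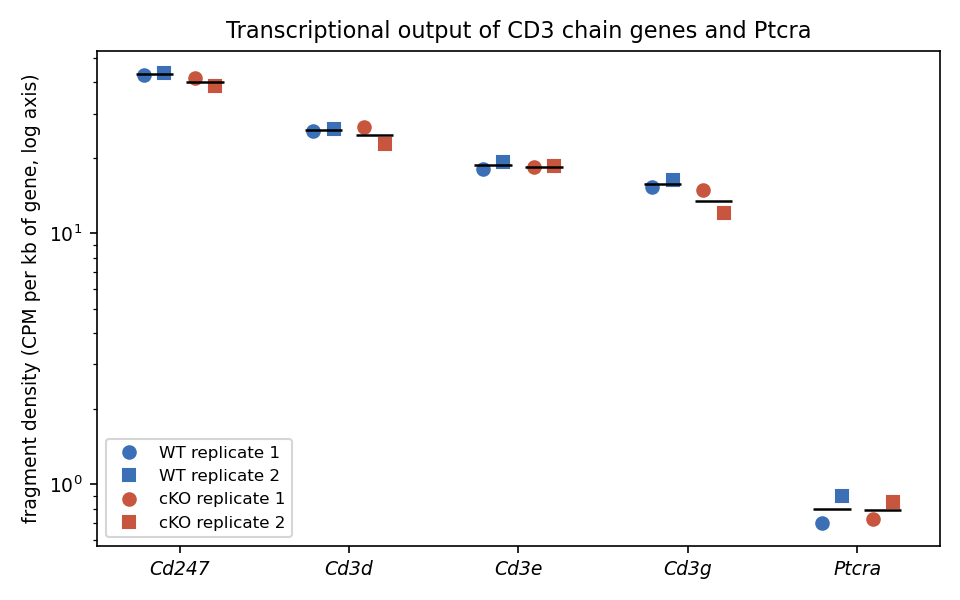
Fragment density (CPM per kb of gene, log axis) of Cd247, Cd3d, Cd3e, Cd3g and Ptcra in each of the 4 libraries, with circles for replicate 1, squares for replicate 2, blue for WT, red for cKO and black bars for the mean of a genotype. The 4 CD3 chain genes lie between 12.1 and 43.4 CPM per kb in every library and Ptcra between 0.699 and 0.901.

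The order Cd247, Cd3d, Cd3e, Cd3g, Ptcra was the same in 4 of 4 libraries, and the ranges of no neighbouring pair overlapped. Within a library Cd247 was between 1.57 and 1.71 times as dense as Cd3d, Cd3d between 1.22 and 1.44 times as dense as Cd3e, and Cd3e between 1.18 and 1.53 times as dense as Cd3g. The narrowest step was that from Cd3e to Cd3g, where the lowest Cd3e library had 18.01 and the highest Cd3g library 16.3 CPM per kb. The exon share given above was highest in Cd3d and lowest in Cd247, and its part in the order was not tested. Without division by length Cd247 had a mean of 3429 CPM and was the gene of rank 10, taking between 0.319% and 0.358% of all fragments of a library.

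To determine whether Tox4 loss changed the output of these genes, all genes were tested together with DESeq2. Its size factors scale the libraries to each other, so changes are relative to those of other genes. A shift shared by all genes would not be seen. Calls required a change of at least 1.2-fold together with a p-value under 0.05 after Benjamini-Hochberg adjustment. None of the 5 genes was called higher or lower in cKO (0 of 5), against 3.71% of the 11625 genes, of which 2.14% were called higher and 1.57% lower. Before adjustment 1 of the 5, Cd3g, had a p-value under 0.05, as had 13.5% of all genes. With edgeR, which called 0.499% of genes, 0 of 5 were called and 0 had an unadjusted p-value under 0.05. With limma voom, which called 0.525%, 0 of 5 were called and 1 had an unadjusted p-value under 0.05. The 5 log2 fold changes were all below 0, as were those of 49.8% of all genes, with a median of -0.08 against 0.00 for all genes. As DP cells were measured in bulk, fewer cells expressing a gene and less output per cell cannot be told apart in any of these values.

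Cd3g, which encodes the gamma chain, had the largest difference of the 5 genes. It was counted at 165 and 177 CPM in WT replicates 1 and 2 and at 161 and 131 CPM in cKO replicates 1 and 2. Both cKO libraries lay below both WT libraries, which was also the case for 24.0% of all genes, but cKO replicate 1 was close to WT replicate 1. The mean was 171 ± 8.19 CPM in WT and 146 ± 20.9 CPM in cKO (SD, n = 2), and the difference between the means was smaller than the gap between the cKO libraries. The log2 fold change was -0.23 (SE 0.102), that is 0.851-fold with a 95% interval of 0.741 to 0.978 for this gene alone, and the DESeq2 p-value was 0.0228 before and 0.229 after adjustment over all genes. The size rested on cKO replicate 2, without which the log2 fold change was -0.10, while without cKO replicate 1 it was -0.38, with adjusted p-values of 0.998 and 0.197.

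Cd3d, the gene of the delta chain that shares an upstream region with Cd3g, was counted at 134 and 138 CPM in WT and at 139 and 119 CPM in cKO. The groups overlapped, with cKO replicate 1 the highest and cKO replicate 2 the lowest of the 4 libraries. The log2 fold change was -0.08 (SE 0.0949, adjusted p = 0.815 in DESeq2), or 0.948-fold with a 95% interval of 0.833 to 1.08, and without cKO replicate 2 it turned to 0.03. Cd3e, whose product is needed in both CD3 dimers, was the steadiest in cKO, with 196 and 210 CPM in WT and 199.8 and 201 CPM in cKO. The cKO libraries lay between the WT libraries. The log2 fold change of Cd3e was -0.02 (SE 0.0805, adjusted p = 0.962 in DESeq2). In this fit its 95% interval, 0.885-fold to 1.10-fold, lay within a change of 1.2-fold in either direction. With 1 library left out that did not hold in every fit. The sign for Cd3e changed without WT replicate 2, to 0.04.

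Cd247, the gene of the zeta chain, was counted at 3515 and 3580 CPM in WT and at 3429 and 3195 CPM in cKO, from between 127015 and 174306 fragments. Both cKO libraries lay below both WT libraries, again as in 24.0% of all genes. The mean was 3547 ± 46.0 CPM in WT and 3312 ± 166 CPM in cKO (SD, n = 2). The log2 fold change was -0.10 (SE 0.0682, adjusted p = 0.556 in DESeq2), or 0.932-fold. In this fit its 95% interval of 0.849 to 1.02 also lay within 1.2-fold in either direction. With the replicate block (-0.10, SE 0.0926) the interval reached beyond 1.2-fold on the lower side. The same was seen in some fits with 1 library left out. The log2 fold change of Cd247 ranged from -0.15 without cKO replicate 1 to -0.06 without cKO replicate 2. The last 6000 bp of Cd247, 7.28% of its length, overlap the end of Pou2f1 on the other strand, a gene of a ubiquitous octamer factor that was at 145 and 141 CPM in WT and at 158 and 143 CPM in cKO.

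Ptcra was counted at 5.63 and 7.25 CPM in WT and at 5.85 and 6.82 CPM in cKO, from between 225 and 353 fragments. The cKO libraries lay between the WT libraries, and replicates differed by 1.29-fold in WT and by 1.16-fold in cKO. The mean was 6.44 ± 1.15 CPM in WT and 6.34 ± 0.68 CPM in cKO (SD, n = 2). The fitted log2 fold change was -0.03 (SE 0.265, adjusted p = 0.986 in DESeq2). The 95% interval ran from 0.684-fold to 1.41-fold, so a change of 1.2-fold in either direction lay inside it. The sign changed without WT replicate 2, to 0.17, and without cKO replicate 1, to 0.09.

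**Figure D2:**
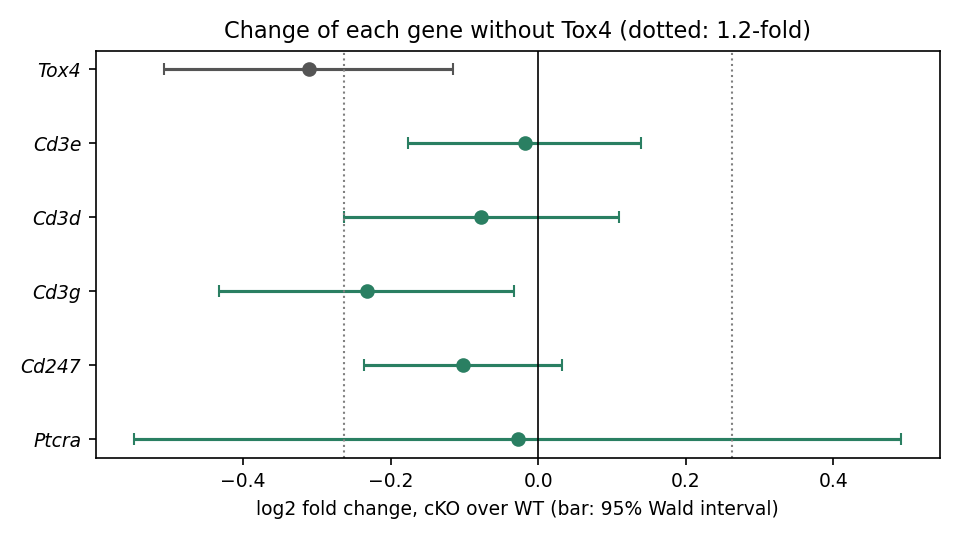
Log2 fold change of cKO over WT from the DESeq2 fit across all genes (points) with 95% Wald intervals (bars) for Tox4 and the 5 genes, where the dotted lines mark a change of 1.2-fold. The interval of Cd3g, from -0.43 to -0.03, is the only one of the 5 genes that does not hold 0, and that of Ptcra, from -0.55 to 0.49, is the widest.

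The genes were also tested with each library left out, where the lone library of a genotype was assumed to vary like the other genotype. None of the 5 was called in any of these 4 fits, which called between 0.766% and 3.84% of all genes. Cd3g and Cd247 stayed below 0 in all 4, while Cd3e, Cd3d and Ptcra changed sign in at least 1. Without WT replicate 1, the library with Xist, the log2 fold changes were -0.07 for Cd3e, -0.10 for Cd3d, -0.29 for Cd3g, -0.12 for Cd247 and -0.21 for Ptcra.

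**Figure D3:**
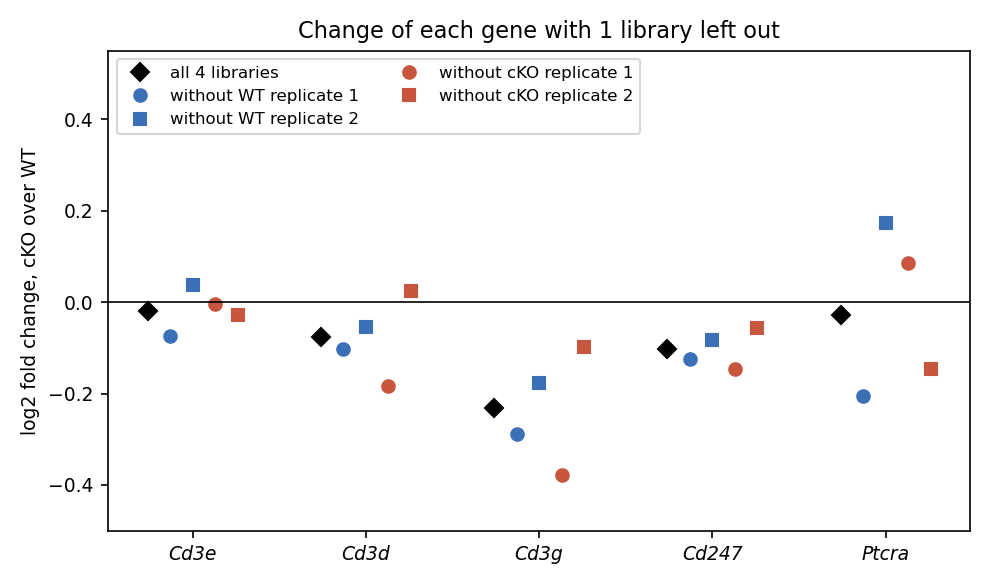
Log2 fold change of cKO over WT for the 5 genes with all 4 libraries (black diamonds) and with each library left out (circles for replicate 1, squares for replicate 2, blue for WT, red for cKO). Cd3g lies between -0.38 and -0.10 and Cd247 between -0.15 and -0.06, while Cd3e, Cd3d and Ptcra fall on both sides of 0.

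Because the chains are built into 1 complex, the balance between their genes was compared within each library, which is free of the scaling between libraries. Each gene's share of the summed density of the 4 CD3 chain genes was tested by an exact two-sided permutation test over libraries, which cannot go below 0.333 with 2 against 2, and p-values were adjusted over 5 quantities. Cd247 made up 42.04% and 41.3% in WT and 41.1% and 42.1% in cKO. Cd3d made up 25.2% and 24.9% in WT and 26.1% and 24.6% in cKO. The groups overlapped for both, and the means differed by -0.071 percentage points for Cd247 and by 0.354 points for Cd3d, with an exact p-value of 1.0 for each. Cd3e made up 17.8% and 18.3% in WT and 18.2% and 20.1% in cKO, a difference of 1.09 points (exact p-value 0.667) that was 0.115 points without cKO replicate 2 and 2.07 points without cKO replicate 1. Cd3g made up 15.02% and 15.5% in WT and 14.6% and 13.1% in cKO. It was the single chain whose groups did not overlap, with a difference of -1.37 points and an exact p-value of 0.333, the smallest this design allows, and adjusted p-values were 1.0 throughout. This difference was -0.623 points without cKO replicate 2 and -2.13 points without cKO replicate 1. The density of Ptcra was 0.69% and 0.857% of the CD3 sum in WT and 0.719% and 0.92% in cKO, so that the groups overlapped and replicates of a genotype differed by more than the genotypes (exact p-value 0.667).

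**Figure D4:**
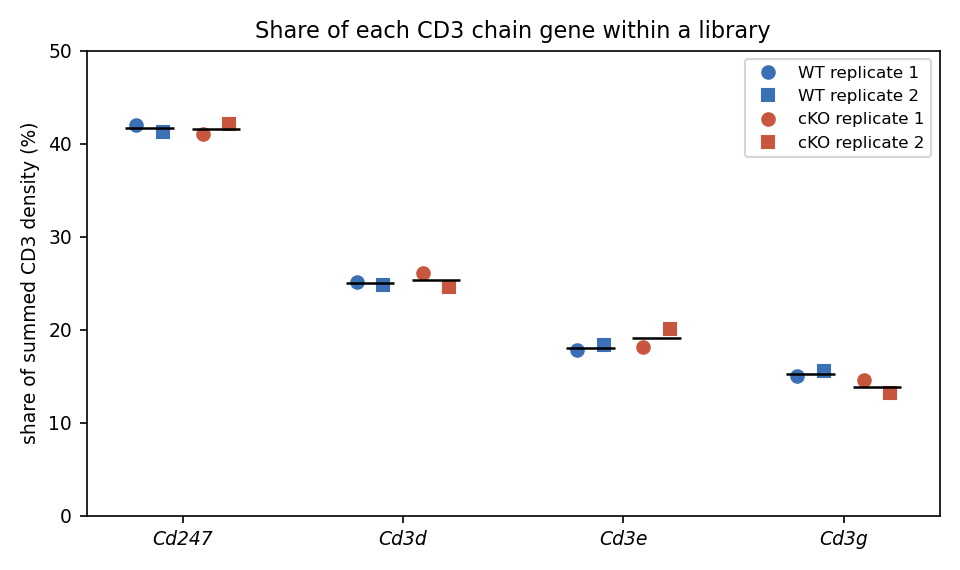
Share of each CD3 chain gene in the summed CPM per kb of the 4 CD3 chain genes, in percent, for each library, with circles for replicate 1, squares for replicate 2, blue for WT, red for cKO and black bars for the mean of a genotype. Cd3g is at 15.02% and 15.5% in WT and at 14.6% and 13.1% in cKO, while the shares of the other 3 genes overlap between genotypes.

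Genes that work with these chains were described by 3 lists, as counts without a set test. The lists were chosen with earlier results of these data known, so a share above that of all genes is no test of them. Many of their genes also had a smaller SE than the median of all tested genes, 0.148, which makes a call easier to reach. Of 14 measured genes of the TCR surface, among them coreceptors and costimulatory receptors, 0 were called higher and 1 was called lower, Cd8a, one chain of the CD8 coreceptor, which made 7.14% against 3.71% of all genes. The median log2 fold change was -0.08. Cd8a was at 498 and 629 CPM in WT and at 395 and 383 CPM in cKO, with a log2 fold change of -0.54 (SE 0.1001, adjusted p = 1.21e-05 in DESeq2) that was -0.35, still called, without WT replicate 2. Neither edgeR nor limma voom called it or another of the 14 genes, with 1 and 3 genes at an unadjusted p-value under 0.05 against 2 with DESeq2. Of all genes 15.6%, 15.8% and 13.5% had such a p-value with edgeR, limma voom and DESeq2. The densest others were Cd4, the other coreceptor, at 0.05 (adjusted p = 0.881 in DESeq2), and Sit1, a TCR-associated adaptor, at -0.18 (0.665) on the log2 fold change scale. The 13 symbols listed for TCR alpha, beta, gamma and delta constant genes matched no row of the table and were not analysed here.

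Of 30 TCR signalling genes, 2 were called higher and 1 was called lower, 3 of 30 against 3.71% of all genes, with a median log2 fold change of 0.01. Lck, the kinase that phosphorylates the CD3 motifs, was at 307 and 328 CPM in WT and at 392 and 388 CPM in cKO. Its log2 fold change was 0.29 (SE 0.0754, adjusted p = 0.00478 in DESeq2). The Cre transgene, present only in cKO, uses the proximal Lck promoter, and whether it added fragments to Lck was not tested. Ptpn22, a phosphatase that acts on Lck and Zap70, rose by a log2 fold change of 0.36 (SE 0.079, adjusted p = 3.72e-04 in DESeq2), and Dgka, which removes the diacylglycerol made on TCR signalling, fell by 0.36 on the log2 scale (SE 0.0741, adjusted p = 1.22e-04 in DESeq2). In all 3 genes the groups did not overlap, but the same held for many genes, with cKO higher without overlap in 24.9% of all genes and lower in 24.0%. Lck was no longer called without WT replicate 1 (0.24), cKO replicate 1 (0.30) or cKO replicate 2 (0.30) or with the replicate block (0.30, adjusted p = 0.111 in DESeq2), Dgka without cKO replicate 1 (-0.36) or cKO replicate 2 (-0.35), and Ptpn22 without cKO replicate 2 (0.30). Zap70, which binds the phosphorylated zeta chain, was at 160 and 157 CPM in WT and at 151 and 142 CPM in cKO and was not called (log2 fold change -0.12, adjusted p = 0.578 in DESeq2). Pag1, an adaptor that recruits the Lck inhibitor Csk, passed the p-value criterion at 0.0453 but not that of 1.2-fold, with a log2 fold change of 0.22. Among the densest genes of the list were Lat, the adaptor phosphorylated by Zap70, and Sla2, an adaptor that dampens TCR signals, with log2 fold changes of 0.02 and -0.12, neither of them called. With edgeR and with limma voom 0 of the 30 genes were called, and 11 had an unadjusted p-value under 0.05 with each of the 3 tools. Of all genes 13.5% reached that level with DESeq2, 15.6% with edgeR and 15.8% with limma voom.

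Of 23 measured transcription regulators of T cell genes, 3 were called higher and 1 was called lower, 17.4% against 3.71% of all genes, with a median log2 fold change of 0.11. Myb had the largest increase, from 579 and 584 CPM in WT to 807 and 844 CPM in cKO (log2 fold change 0.50, SE 0.0698, adjusted p = 3.91e-10 in DESeq2), and was called in every alternative run. Notch1, the receptor whose signal drives Ptcra in DN cells, rose from 162 and 176 CPM to 231 and 237 CPM (0.47, SE 0.0831, adjusted p = 3.59e-06 in DESeq2). It was not called with edgeR or without cKO replicate 2 (0.44). Runx3, a factor of CD8 lineage cells, rose as well (0.42, SE 0.107, adjusted p = 0.00472 in DESeq2), but was not called when any 1 of the 4 libraries was left out, at 0.40 to 0.43, or with the replicate block (0.42, adjusted p = 0.12 in DESeq2). Tcf7, the densest gene of the list at 121 CPM per kb, was called lower at -0.33 (SE 0.0943, adjusted p = 0.0174 in DESeq2), and was not called without WT replicate 1 (-0.37), WT replicate 2 (-0.28) or cKO replicate 2 (-0.17) or with the replicate block (-0.33, adjusted p = 0.095 in DESeq2). Of the E proteins, Tcf12 passed the p-value criterion at 0.016 with a log2 fold change of 0.23 and missed that of 1.2-fold, Tcf4 was at 0.22 (adjusted p = 0.0675 in DESeq2) and Tcf3 at -0.04 (adjusted p = 0.904 in DESeq2). Ets1 and Satb1, also among the densest, had log2 fold changes of 0.16 and -0.06 and were not called. With edgeR 1 of the 23 genes was called and with limma voom 2, where these tools called 0.499% and 0.525% of all genes.

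**Figure D5:**
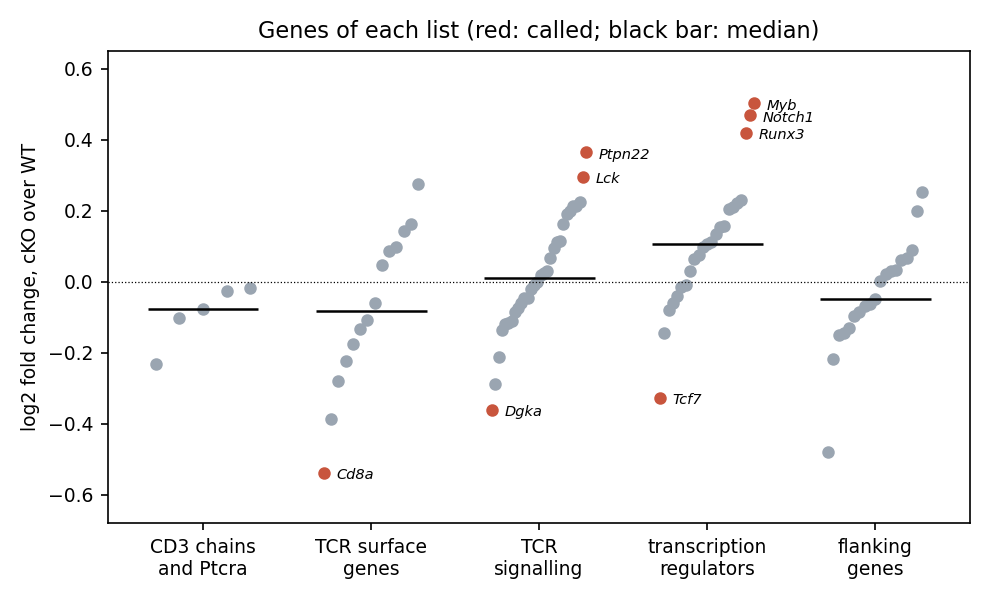
Log2 fold change of cKO over WT for the 5 genes, 14 TCR surface genes, 30 TCR signalling genes, 23 transcription regulators and 19 flanking genes, 1 point a gene, in red and named where called by DESeq2, with a black bar at the median of each list. The named points are 1 of 14 surface genes, 3 of 30 signalling genes and 4 of 23 regulators, where 3.71% of all genes were called.

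As Ptcra is a gene of DN cells, DN markers were set beside it. Their summed level was 98.95 and 94.01 CPM in WT and 127 and 140 CPM in cKO. The difference came from 1 of the 10 markers, Notch3, a Notch receptor of early thymocytes, which was at 22.5 and 25.4 CPM in WT and at 55.1 and 61.8 CPM in cKO (log2 fold change 1.28, SE 0.127, adjusted p = 1.71e-20 in DESeq2). The other 9 DN markers summed to 76.5 and 68.6 CPM in WT and to 71.6 and 78.04 CPM in cKO, and the groups overlapped as they did for Ptcra. The summed level of 10 markers of mature single positive cells lay between 631 and 634 CPM in WT and between 572 and 649 CPM in cKO. The part of either cell type in the values of the 5 genes was not tested.

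Flanking genes were described to see whether a difference extended along the locus. Of 19 genes with a mean of at least 1 CPM within 100 kb of a member, DESeq2 called 0, and 0 were called by edgeR or limma voom, with 1 at an unadjusted p-value under 0.05 for each tool. Of all genes these tools called 3.71%, 0.499% and 0.525%, and 13.5%, 15.6% and 15.8% had such a p-value, so 0 of 19 is near the background. Their median log2 fold change was -0.05. The lowest value was that of Creg1, upstream of Cd247, at 8.30 and 7.78 CPM in WT and at 5.40 and 6.14 CPM in cKO (log2 fold change -0.48, SE 0.244, adjusted p = 0.348 in DESeq2). The highest was that of Mpzl2, beside Cd3e, at 0.25 (SE 0.198, adjusted p-value 0.644). Around Ptcra 10 such genes lay, and around Cd3g 6.

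The genes whose values followed each member most closely were sought among 8152 other genes, or 8153 for Ptcra, with a mean of at least 10 CPM, by the root mean square difference of log2(CPM + 0.5) after centring on the gene's mean. With only 4 libraries this likeness is a description of few points. For Cd3g the nearest were Nfix (0.012), Rps19 (0.0139) and Tbxa2r (0.0158), and 66 genes lay within 0.05. For Cd247 they were Eif4ebp3, Med17 and Zdhhc7, between 0.00541 and 0.00737, with 805 genes within 0.05. For Cd3d they were Alkbh4, Tbc1d10c and Sh3bp4, for Cd3e they included Nfx1 and Kansl2, and for Ptcra Zfyve16, Psme3 and BC031181. Cd3e had 887 genes within 0.05 and Ptcra 26. Among the members themselves Cd3d and Cd247 were closest, at 0.0432, and Cd3g and Ptcra farthest apart, at 0.224.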

How the data were processed

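TTchem-seq was measured in 2 WT and 2 cKO libraries of DP thymocytes, grouped by sample title. Per the study's methods and the labels, the authors filtered reads with fastp 0.13.1 and aligned them with STAR 2.7.9a to GRCm38 with RefGene genes, and gene counts came from STAR per the methods, while the labels list featureCounts 1.6.1. The labels describe capture of polyadenylated RNA, whereas the methods describe enrichment of labelled RNA and depletion of ribosomal RNA. The deposited table held expected counts, fragments per gene of which 8.61% of values were fractional, over gene intervals that include introns. The deposited gene length, in bp, was used for CPM per kb. The libraries were made with strand marking, but strand use in counting is not given in the sources used here, so genes overlapping on opposite strands are uncertain. As the sources mention no molecular identifiers, PCR copies may be among the fragments. The yeast RNA added to each sample played no part in scaling.

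Expected counts were rounded to whole numbers and fitted over all genes with DESeq2 1.42.0 (Wald test, default size factors, no covariates, independent filtering at 0.1), following the study's methods. A call needed a mean of at least 1 CPM, 1.2-fold and an adjusted p-value under 0.05. Alternatives were edgeR 4.0.16 quasi-likelihood, limma 3.58.1 voom, other size factors, filters, a replicate block and leaving out each library. Intervals are 95% Wald intervals. The fit was tested on simulated data. The counts were drawn from the fit's own means and dispersions, so this checks the code and not the calls made here. Analyses ran in R 4.3.3 and in Python 3.11.15 with scipy 1.17.1, numpy 2.4.6, pandas 2.3.3 and matplotlib 3.10.9. Named genes were the members and Tox4, in each of 3 lists the called genes and the 3 densest per kb, the flanking genes and the 3 genes of most similar pattern for each member. Tcf12, Pag1, Notch3, Zap70, Tcf3, Tcf4, Rag1, Pecam1 and Rn45s were named after their values were seen. Some genes that the rule names are not reported here. The members and lists were chosen with earlier results of these data known.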

Additional observations from a re-analysis of the deposited data

How the results depend on the processing

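None of the 5 genes was called under any of the 11 alternatives, which called between 0.499% and 3.97% of all genes. Under the 7 that kept all libraries, 35 of 35 values kept their direction. With 1 library omitted at a time, the log2 fold change ranged from -0.075 to 0.038 for Cd3e, from -0.183 to 0.0251 for Cd3d, from -0.378 to -0.0971 for Cd3g, from -0.146 to -0.0563 for Cd247, from -0.205 to 0.174 for Ptcra and from -0.342 to -0.281 for Tox4, with Tox4 not called in any of the 4. Tox4 was also not called with edgeR (-0.311, adjusted p-value 0.153), limma voom (-0.3099, 0.143), total count factors (-0.308, 0.0511), independent filtering off (-0.311, 0.0821) and the replicate block (-0.311, 0.361). The cause was not tested.

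Over 11625 genes, libraries with 1 number in common deviated from their group means with a correlation of -0.03, so the replicate numbers were not taken as a pairing, although Rn45s was higher in replicate 2 of both genotypes. With the replicate block the log2 fold changes were -0.02 for Cd3e, -0.08 for Cd3d, -0.24 for Cd3g, -0.10 for Cd247 and -0.02 for Ptcra.

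The calls of the lists moved with the test. Against 3 signalling genes, 0 were called with edgeR and 0 with limma voom, 2 with the replicate block, and between 0 and 4 with 1 library left out. Against 1 surface gene, 0 were called with edgeR and 0 with limma voom, and between 1 and 2 with 1 library left out. Against 4 regulators, 1 was called with edgeR, 2 with limma voom and 2 with the replicate block, and between 1 and 3 with 1 library left out.

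The difference in the share of Cd247, -0.071 points, was 0.00759 points without division by length and ranged from -0.579 to 0.437 points with 1 library left out, that of Cd3d from -0.379 to 1.09, that of Cd3e from 0.115 to 2.07, that of Cd3g from -2.13 to -0.623 and the Ptcra ratio from -0.055 to 0.147. The 9 other named genes that were called lost the call in 16 of 63 values from alternatives that kept all libraries and in 14 of 36 with 1 left out, and Pag1 was called without WT replicate 2 (0.293). Lat ranged from -0.0318 to 0.0729, Cd4 from -0.0583 to 0.159, Sit1 from -0.356 to 0.027, Satb1 from -0.122 to 0.0038 and Tcf3 from -0.102 to 0.0226. Ptcra had the fewest fragments of the 5 genes, at most 353 in a library.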

Other observations

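Signalling chains of other lineages that carry the same kind of tyrosine motif were below the 4 CD3 chain genes in these libraries. Fcer1g, the Fc receptor gamma chain and a relative of the zeta chain, was at 1.43 and 1.17 CPM in WT and at 1.64 and 1.28 CPM in cKO, and Tyrobp, an adaptor of NK and myeloid cells, at 0.727 and 0.555 CPM in WT and 0.26 and 0.528 CPM in cKO. Of the B cell receptor chains, Cd79a lay between 0.188 and 0.859 CPM and Cd79b between 2.31 and 4.90 CPM. Per kb of gene, the mean density of Cd79b was 1.15 and that of Fcer1g 0.289 CPM per kb, beside 41.6 for Cd247 and 0.794 for Ptcra. Cd79b was denser than Ptcra in WT and in cKO replicate 1, whereas in cKO replicate 2 it was at 0.718 and Ptcra at 0.847 CPM per kb. These 4 genes were chosen after their values were seen, and no test was made of them.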
